A study of Mus musculus with 10 samples.

Results

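The genes that build and load the class I and class II molecules of the mouse major histocompatibility complex (MHC) were followed in the lungs of mice fed a fish oil or a coconut oil diet. The set comprised 10 named genes, 6 for class II (H2-Aa, H2-Ab1, H2-Eb1, H2-DMa, Cd74 and Ciita) and 4 for class I (B2m, H2-D1, H2-K1 and Tap1), chosen by gene symbol out of 24059 symbols in the count table. All 10 were present in the table, and all had counts. Each mouse was a female of the C57Bl/6 strain, aged 14 weeks, that had eaten one of a pair of semipurified high-fat diets for 8 weeks. The FO diet (5 mice) was enriched in n-3 polyunsaturated fat from menhaden fish oil, and the CO diet (5 mice) in saturated fat from coconut oil. No mouse on standard chow was part of the comparison, so that FO was compared with another high-fat diet. Lungs were taken whole after flushing with PBS and following a test of airway reactivity, and each library held the RNA of 1 mouse. P-values therefore measure the spread between mice.

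Class I molecules are made of a heavy chain, here from H2-K1 or H2-D1, and the light chain beta-2 microglobulin, and they display peptides from inside the cell to CD8 T cells on nearly every nucleated cell. TAP1 is a subunit of the transporter that brings those peptides into the endoplasmic reticulum. Class II molecules pair an alpha with a beta chain (H2-Aa with H2-Ab1), are guided by the invariant chain CD74, exchange their peptides with the help of the DM molecule, and display peptides from the endosome to CD4 T cells. CIITA is the coactivator that switches the class II genes on. In the lung, class II is carried by dendritic cells, B cells and macrophages, and alveolar type 2 cells, the surfactant-producing epithelium, carry it too.

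RefSeq promoter windows of GRCm38.p6, the build named mm10 in the labels, were read for 7 of the 9 members looked up, with none matched for H2-Ab1 and Ciita and none used for Cd74. The 150 bases before the RefSeq start are shown for both class II chains that had a window and for the 3 class I chains, since these 5 genes had enough counts to be tested. They are the bases at chr17:34287824-34287973 (minus strand) for H2-Aa, chr17:34305717-34305866 (plus) for H2-Eb1, chr17:34000348-34000497 (minus) for H2-K1, chr17:35262944-35263093 (plus) for H2-D1 and chr2:122147537-122147686 (plus) for B2m. For H2-K1 the first of 2 listed windows was used. Its bases lie inside the gene interval chr17:33996012-34000619, so they precede the start used for that window and not the outer end of the gene. Capitals mark matches to 5 searched motifs on either strand: the core of the class II Y box CTGATTGG, the CCAAT box bound by NF-Y, the cyclic AMP response half-site TGACG, the core of the interferon response element TTTCNNTTC, and GGATTCCCC, an NF-kB type site. Each match to CTGATTGG also holds a CCAAT box on the other strand.
H2-Aa: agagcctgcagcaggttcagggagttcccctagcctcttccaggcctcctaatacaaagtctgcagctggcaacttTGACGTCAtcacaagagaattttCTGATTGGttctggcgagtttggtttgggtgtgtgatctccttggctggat
H2-Eb1: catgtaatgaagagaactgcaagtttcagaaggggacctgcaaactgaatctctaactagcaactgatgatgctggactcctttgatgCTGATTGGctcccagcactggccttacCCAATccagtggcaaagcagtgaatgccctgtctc
H2-K1: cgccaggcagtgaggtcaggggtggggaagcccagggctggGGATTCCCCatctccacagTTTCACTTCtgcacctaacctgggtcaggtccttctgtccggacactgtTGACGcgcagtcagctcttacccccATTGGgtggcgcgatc
H2-D1: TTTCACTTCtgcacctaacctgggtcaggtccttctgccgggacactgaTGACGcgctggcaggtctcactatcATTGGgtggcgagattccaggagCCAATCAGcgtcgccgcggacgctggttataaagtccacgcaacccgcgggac
B2m: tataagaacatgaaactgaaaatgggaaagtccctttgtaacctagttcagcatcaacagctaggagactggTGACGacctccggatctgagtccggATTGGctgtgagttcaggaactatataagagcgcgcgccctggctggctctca

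Both class II chains held CTGATTGG in the forward direction, at -51 to -44 in H2-Aa and at -62 to -55 in H2-Eb1, counted from the RefSeq start. Only 4.1% of the 32851 promoter windows of 300 bases held this core on either strand. The core also lay on the other strand in H2-K1, at 9 to 16 after the start, and in H2-D1, at -53 to -46. H2-K1 and H2-D1 each held all 5 motifs in the 300 bases, with the interferon core TTTCNNTTC and the site GGATTCCCC lying in the same order and at the same spacing in both genes. TTTCNNTTC was found in 7.52% and GGATTCCCC in 0.283% of all windows, while CCAAT and TGACG were common, in 37.4% and 20.8%. B2m held CCAAT once and TGACG at 2 places. Of the members not shown, Tap1 held CTGATTGG at -222 to -215 and TGACG, and the pair of windows listed for H2-DMa held a single CCAAT between them. A match is a stretch of letters and was not tested as a binding site.

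**Figure D1:**
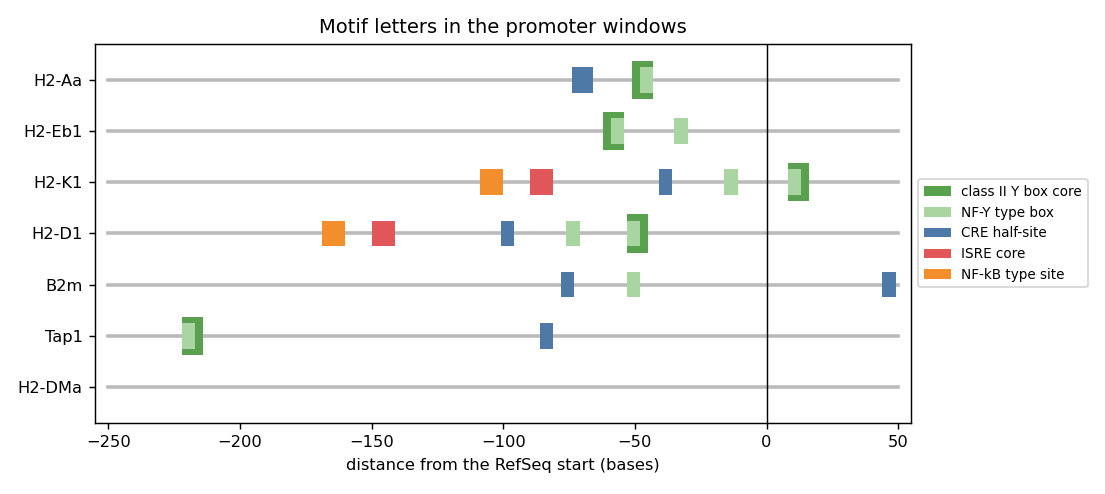
Positions of the 5 searched motifs in the RefSeq promoter windows of 7 members. The horizontal axis is the distance from the RefSeq start in bases, each grey line is the first listed 300-base window of 1 gene, and coloured blocks are matches on either strand. H2-K1 and H2-D1 show the same order of blocks, and the class II chains H2-Aa and H2-Eb1 share the Y box core at -51 to -44 and -62 to -55. H2-K1, H2-D1 and Tap1 hold the same core on the other strand.

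The libraries held from 229766 to 1124963 counts on genes, of which Rn45s, the ribosomal RNA precursor, took 21.8% to 87.0%. All other genes together had 45177 to 473254 counts per mouse, and a floor of 3 counts was equal to 0.00063% to 0.0066% of them. FO mouse 2 and CO mouse 5 stood apart, with 8.53% and 6.15% of the other counts on the nuclear RNA Malat1 against at most 1.05% in the remaining mice. Libraries were prepared with TruSeq RNA v2 or riboZero, and the sources do not say which mouse had which. Whether library kit overlapped with diet is therefore unknown, and the part of the kit was not tested. Alveolar type 2 genes, a check of the tissue, were present in every lung. Their summed level, of which Sftpc was the largest part, was 1743.3 to 3738.5 CPM (counts scaled to a common library size with the TMM factors of the R package edgeR) in FO mice and 1087.6 to 3008.2 in CO mice. In whole lung, fewer cells of a type and less RNA per cell cannot be told apart.

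None of the 10 genes was called as different between FO and CO mice. Filtering with edgeR's default minimum count of 10 left 2438 genes, among them 6 members, H2-Aa, H2-Ab1, H2-Eb1, H2-K1, H2-D1 and B2m. Of these, 0 had an unadjusted p-value under 0.05 in edgeR's quasi-likelihood test, the threshold the study used, where 71 of all genes tested did (2.91%), 41 higher and 30 lower in FO. The smallest edgeR p-value among the 6 was 0.479, and no DESeq2 or limma fit called a member either. The remaining H2-DMa, Cd74, Ciita and Tap1 had too few counts for the filter and were read from a fit of all 14161 genes with any count. That fit called 4.15% of its genes and 0 of the 10 members. Adjusted p-values under 0.05 were reached by 0 of the 2438 genes with edgeR (0.0%) and by 1, no member, with DESeq2. In edgeR's fit of the 14161 genes with any count, 1 gene, again no member, reached this. The CPM values of the diets overlapped for every member, and 0.41% of the genes tested had diets that did not overlap.

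The chains of the class II I-A molecule overlapped between the diets, and for both the CO mice spread more widely than the FO mice. H2-Aa, the alpha chain gene at chr17:34282744-34287823, had 42.6, 40.5, 64.5, 61.8 and 65.5 CPM in FO mice 1 to 5 and 19.9, 10.7, 43.8, 66.1 and 61.7 CPM in CO mice 1 to 5. The low CO values were those of mice 1 and 2, which rested on 3 and 2 counts, while CO mice 4 and 5 were as high as the highest FO mice. Its means were 55.0 ± 12.4 (SD, n = 5) and 40.4 ± 24.7 CPM, and its log2 fold change of FO over CO was 0.20 (SE 0.35, 95% interval -0.53 to 0.92, edgeR adjusted p = 0.998). A two-sided exact permutation test over the mice gave p = 0.325, where the smallest p that 5 against 5 mice allow is 0.0079. H2-Ab1, the beta chain gene at chr17:34263227-34269418, had 24.2, 25.2, 38.7, 30.9 and 39.3 CPM in FO and 33.2, 21.3, 21.9, 38.8 and 48.6 CPM in CO mice. The highest and the lowest mouse were both in the CO group. The log2 fold change was -0.22 (SE 0.30, interval -0.86 to 0.42, edgeR adjusted p = 0.998, two-sided exact permutation p = 0.889).

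H2-Eb1 encodes the beta chain of the second class II molecule, I-E, which C57Bl/6 mice do not display because their gene for the E alpha chain is defective. The beta chain gene was nevertheless counted in every mouse, with 46.0, 40.5, 45.2, 33.4 and 32.7 CPM in FO and 33.2, 32.0, 26.3, 63.0 and 36.7 CPM in CO mice. CO mouse 4 was the one high value, on 60 counts, and the other 9 mice lay between 26.3 and 46.0 CPM. H2-Ea-ps, the symbol of the E alpha gene, had 0 counts in all 10 mice. If reads could be counted to this symbol, the floor of 3 counts allows a share of up to 0.00063% of the other counts in the deepest library. In the shallowest library it allows up to 0.0066%. Whether they could is not known, since the annotation used for counting was not given in the sources used here. Some symbols, among them Hba-a1 and Hbb-bs, were also at 0 in every mouse, so this 0 is no measure of E alpha expression. The log2 fold change of H2-Eb1 was -0.04 (SE 0.29, interval -0.65 to 0.58, edgeR adjusted p = 0.998, two-sided exact permutation p = 0.897).

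The members that serve the class II chains were too sparse for the filter. Cd74, on chromosome 18, had 12, 30, 3, 23 and 9 counts in FO mice 1 to 5 and 1, 2, 11, 41 and 17 in CO mice 1 to 5. This amounted to 22.8 ± 6.49 CPM in FO and 21.3 ± 14.2 CPM in CO mice (SD, n = 5 each, two-sided exact permutation p = 0.841). H2-DMa, the alpha chain of DM, had between 1 and 11 counts per mouse, and 7 of the 10 mice were at or under 3. Ciita had 7, 13, 2, 4 and 1 counts in FO mice and 0, 0, 0, 20 and 6 counts in CO mice. All 5 FO mice but only 2 CO mice had a count, and the 3 CO mice at 0 were among the shallower libraries, where the floor of 3 counts allows a share of up to 0.0066%, 0.0054% and 0.0022% of the other counts. FO mouse 3, with 2 counts, had a share of 0.0043% (95% exact Clopper-Pearson interval 0.000521% to 0.0155%) and could not be told apart from those 3 mice. FO mice 1 and 2 had 0.0028% (0.00112% to 0.00576%) and 0.00275% (0.00146% to 0.0047%). Both shares were just above the upper bound of 0.00271% in CO mouse 3, with intervals that overlapped it. FO mice 4 and 5, at 0.0017% and 0.00109%, were below that bound. A difference of the FO mice together from those 3 was not tested. In the fit of genes with any count, edgeR's log2 fold changes were -0.14 (95% interval -0.91 to 0.64) for Cd74, 0.28 (-1.04 to 1.60) for H2-DMa and -0.17 (-1.30 to 0.96) for Ciita. For Cd74 and Ciita the fitted sign was opposite to that of the mean CPM, which for Ciita was 7.82 ± 3.85 in FO and 5.77 ± 9.17 in CO mice (SD, n = 5 each), and all 3 intervals covered 0.

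**Figure D2:**
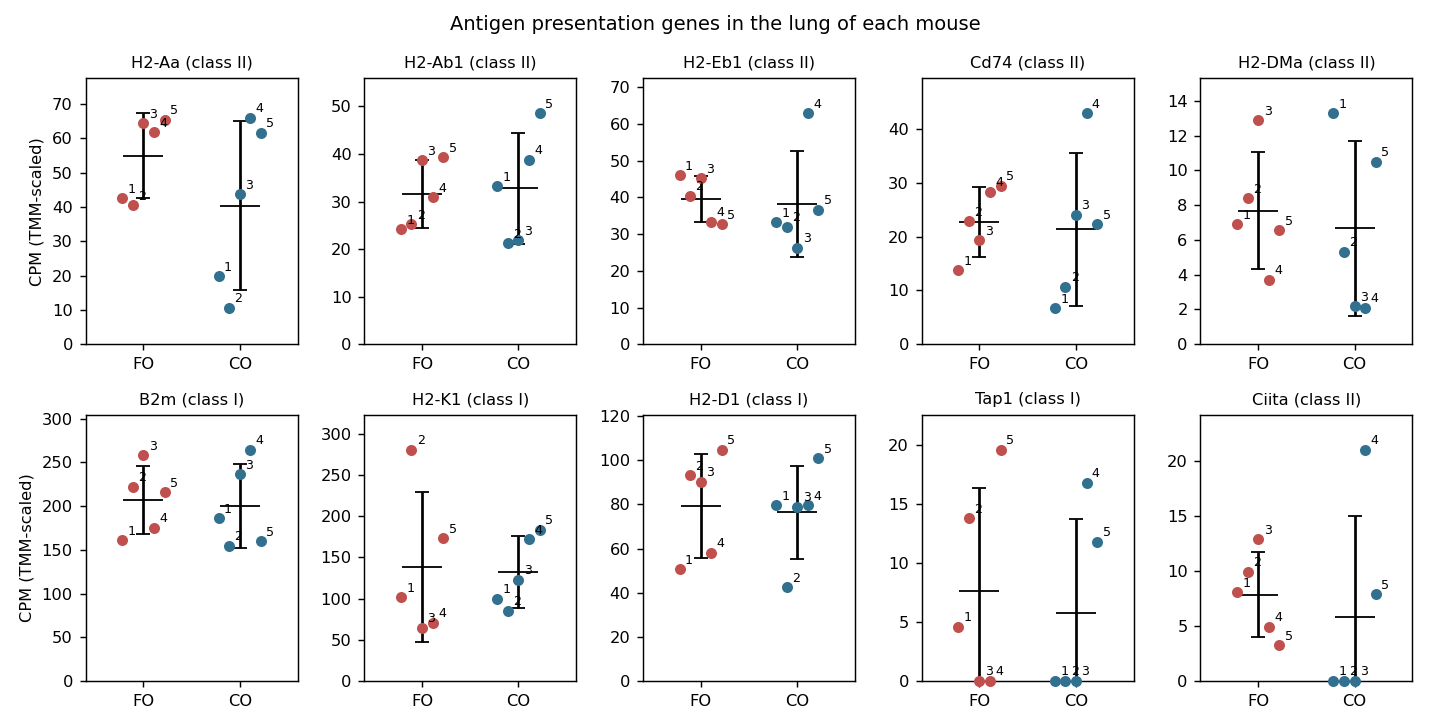
Levels of the 10 genes in each mouse, as TMM-scaled CPM on the vertical axis of each panel, for the FO (red) and CO (blue) diets. Points are mice with their numbers, the long horizontal line is the group mean and the bars are 1 SD, cut at 0. The diets overlap in every panel, FO mouse 2 stands highest for H2-K1 at 280.5 CPM, and CO mouse 4 stands highest for H2-Eb1, Cd74 and Ciita.

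Class I genes overlapped between the diets in the same way, and B2m gave the narrowest interval. B2m, at chr2:122147687-122153082, had 161.1, 222.4, 258.1, 175.4 and 216.1 CPM in FO and 186.1, 154.5, 236.6, 264.5 and 160.1 CPM in CO mice. High and low mice were found on both diets. Its log2 fold change was 0.01 (SE 0.23, interval -0.46 to 0.49, edgeR adjusted p = 0.998, two-sided exact permutation p = 0.825), an interval of 0.725 to 1.4 as a ratio of FO to CO. H2-D1, the D heavy chain at chr17:35263094-35267497, had 50.6, 93.2, 90.3, 58.1 and 104.8 CPM in FO and 79.7, 42.6, 78.9, 79.8 and 101.1 CPM in CO mice. Its log2 fold change was -0.02 (SE 0.27, interval -0.60 to 0.55, edgeR adjusted p = 0.998, two-sided exact permutation p = 0.841), with the highest mouse of each diet just above 100 CPM.

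H2-K1, the K heavy chain at chr17:33996012-34000619, varied most between mice relative to counting error among the 6 genes past the filter. It had 101.3, 280.5, 64.5, 70.4 and 173.5 CPM in FO mice 1 to 5 and 99.7, 85.2, 122.7, 172.2 and 183.7 CPM in CO mice 1 to 5. FO mouse 2 was the highest and FO mice 3 and 4 were the lowest, so that the CO values all fell inside the FO range. The means were 138 ± 90.7 and 132.7 ± 43.6 CPM (SD, n = 5 each), with a log2 fold change of 0.05 (SE 0.35, interval -0.69 to 0.80, edgeR adjusted p = 0.998, two-sided exact permutation p = 0.929). Without FO mouse 2 the log2 fold change was -0.43, again not called. Within diets its variance was 24.5 times that of counting alone, against 5.22 for B2m, 3.34 for H2-D1, 2.73 for H2-Aa, 1.89 for H2-Eb1 and 1.25 for H2-Ab1. This ratio also rises with the number of counts, so it does not rank genes of unlike depth. Over all 10 mice, the SD as a percent of the mean CPM was 49.6 for H2-K1 and 41.7 for H2-Aa. It was 28.3 for H2-Ab1, 27.2 for H2-D1, 26.9 for H2-Eb1 and 20.4 for B2m. Tap1 was at 0 in 5 mice, 2 on FO and 3 on CO, and had 4 to 18 counts in the remaining 5. Its log2 fold change in the fit of genes with any count was -0.10 (edgeR 95% interval -1.21 to 1.02).

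**Figure D3:**
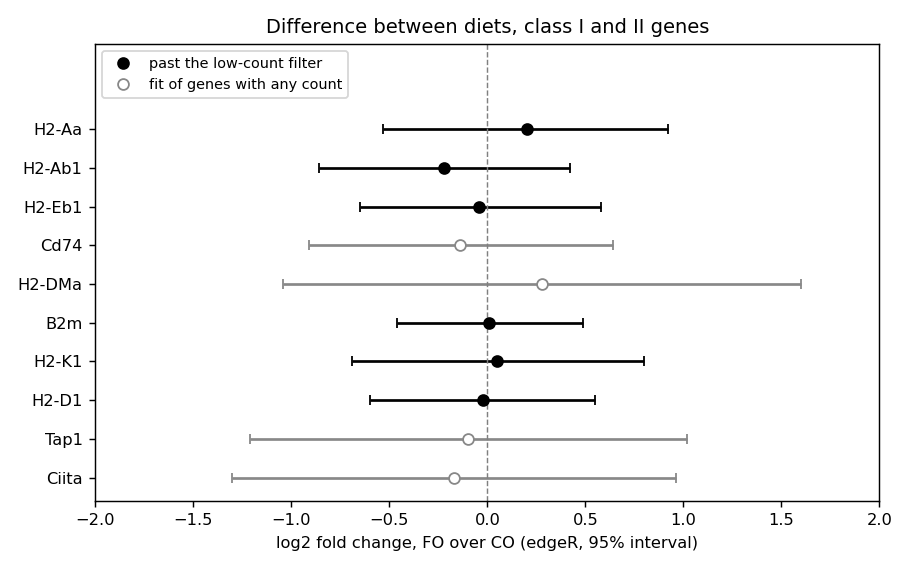
Log2 fold change of FO over CO for the 10 genes (horizontal axis), with 95% intervals from edgeR. Filled points passed the low-count filter and open points come from the fit of all genes with any count. Every interval crosses 0, the narrowest being that of B2m at -0.46 to 0.49.

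The median log2 fold change was -0.04 over the 3 class II genes past the filter and 0.01 over the 3 class I genes, where the median of all genes tested was 0.00. Scaling by library size alone, with Rn45s left in each total, moved the median of all genes to -0.55, of the class II genes to -0.80 and of the class I genes to -0.61, again with 0 members called. Under that scaling 36 genes were called, 1 higher and 35 lower in FO.

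Per length of exon, B2m was by far the most abundant transcript of the group. Its median over the 10 mice was 233.8 CPM per kilobase, above H2-K1 in all 10 mice. The heavy chains followed with 38.1 for H2-K1 and 30.9 for H2-D1, with H2-K1 the higher in 9 of 10 mice. Below them stood the class II chain H2-Eb1 at 18.0, which was above H2-Aa in 9 of 10 mice, and then H2-Aa at 13.9, Cd74 at 13.5 and H2-Ab1 at 12.5. These last 3 did not differ in order beyond their spread, since H2-Aa was above Cd74 in 4 and Cd74 above H2-Ab1 in 5 of 10 mice. H2-DMa at 1.95, Ciita at 0.672 and Tap1 at 0.42 CPM per kilobase had the lowest medians. H2-Ab1 exceeded H2-DMa in 10 of 10 mice. H2-DMa exceeded Ciita in 9 of 10, although 7 mice had 3 counts of H2-DMa or fewer. Ciita was above Tap1 in 3 of 10, with both at 0 in CO mice 1 to 3, so that the order of Ciita and Tap1 was not resolved. Exon lengths were the union of all exons of a gene in the GENCODE vM21 annotation, which may differ from the annotation used for counting. They were 3798 bases for H2-Aa and 1944 for H2-Eb1. Before division by length, H2-Aa had the higher mean, 55.0 against 39.6 CPM in FO and 40.4 against 38.2 CPM in CO mice. The place of H2-Eb1 above H2-Aa therefore rests on the lengths used.

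The balance between the classes differed from mouse to mouse. The class II genes held 30.8%, 19.5%, 31.9%, 34.9% and 25.6% of the counts on all 10 genes in FO mice 1 to 5 and 22.5%, 22.1%, 21.3%, 30.5% and 29.1% in CO mice 1 to 5. FO mouse 2, at 19.5% (95% exact Clopper-Pearson interval 17.1% to 22.1%), and FO mouse 4, at 34.9% (30.1% to 40.0%), lay apart by more than counting error although they shared a diet. CO mouse 3 at 21.3% (16.4% to 26.8%) and CO mouse 4 at 30.5% (27.2% to 34.0%) did so too. The means of the diets were 28.5 ± 6.07% and 25.1 ± 4.34% (SD, n = 5), and the ranges overlapped. These intervals cover counting error only, since reads without molecular identifiers need not be independent molecules.

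Among the heavy chains, H2-K1 took 75.1% of the counts on H2-K1 and H2-D1 in FO mouse 2 (71.0% to 78.8%) and 54.8% in FO mouse 4 (44.7% to 64.6%). The lowest share was that of FO mouse 3, 41.7%, with a wide interval of 22.1% to 63.4%. In the CO mice the share ran from 55.6% to 68.3%. Relative to B2m, H2-K1 had 1.26 counts per B2m count in FO mouse 2 and 1.15 in CO mouse 5, the mice with the high Malat1 shares. The other 8 mice had 0.25 to 0.803. H2-D1 per B2m count was also highest in CO mouse 5, at 0.631, but was 0.419 in FO mouse 2. The part of the library preparation in these ratios was not tested. Of the 50-base stretches of the H2-K1 and H2-D1 exons, 9.63% and 12.8% also occur in another gene, so that reads there could be split or dropped in counting, while B2m, H2-Ab1, H2-Eb1 and Cd74 share none. Some members also overlap a gene on the opposite strand, among them H2-DMa with Brd2, Tap1 with Psmb9 and B2m with Patl2, and the strand setting of the counting was not given in the sources used here.

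**Figure D4:**
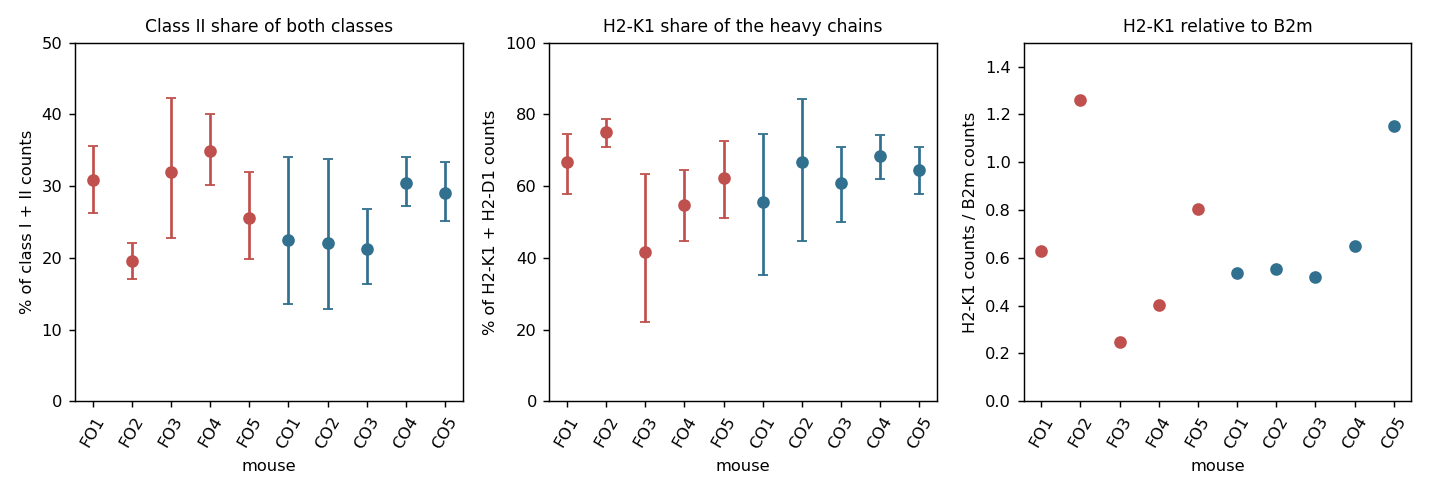
Ratios of counts within each mouse: the class II share of the counts on all 10 genes (left), the H2-K1 share of H2-K1 and H2-D1 counts (middle), both in % with 95% exact Clopper-Pearson intervals, and H2-K1 counts per B2m count (right), for FO (red) and CO (blue) mice 1 to 5. FO mouse 2 has the lowest class II share, 19.5%, and FO mouse 2 and CO mouse 5 have the highest H2-K1 to B2m ratios, 1.26 and 1.15.

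No pair of members past the filter had a correlation across the 10 mice that passed correction. Pearson's r of log2 CPM was positive in all 15 pairs of the 6 genes, whose values share the scaling of their libraries. It was negative in 6 of the 15 within the 5 FO mice, in 1 within the 5 CO mice, and in 3 when the 2 mice farthest from the median were left out, among them H2-Aa with H2-K1 (r = -0.26). The closest pair was H2-Ab1 with H2-D1, with r = 0.67 (permutation test, p = 0.0380, adjusted over 15 pairs 0.284) and Spearman's rho = 0.81 (permutation p = 0.00695, adjusted 0.104). Without CO mice 5 and 2, the farthest from the median of H2-Ab1, r was 0.45. The alpha and beta chains H2-Aa and H2-Ab1 had r = 0.60 (permutation p = 0.0626, adjusted 0.284) and rho = 0.68 (permutation p = 0.0360, adjusted 0.270). Without CO mice 2 and 1, which had 2 and 3 counts of H2-Aa, their r was 0.87. H2-K1 and B2m, whose proteins form one molecule, had r = 0.21 (permutation p = 0.559, adjusted 0.693) and rho = 0.08 (permutation p = 0.839, adjusted 0.839), and r without FO mice 2 and 3 was 0.48.

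The genes most like the members across the 10 mice were ranked by Pearson's r of log2 CPM over 2432 other genes, as a description. Nearest to the mean of the 3 class II genes were Fam101b (r = 0.89), Srsf9 (r = 0.89) and Bub3 (r = 0.85). Nearest to the mean of the 3 class I genes were Cd97 (r = 0.91), Abcf1 (r = 0.88) and Smad2 (r = 0.84). None of the 6 had an unadjusted edgeR p-value under 0.05 between diets. All points share the depth of their libraries.

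Of 81 further genes of the pathway, listed by step of presentation, 76 were in the table, 65 had a count and 23 passed the filter. One of the 23 was called, Ctsd higher in FO, and 0 lower, which is 1 gene where 2.91% of all genes tested were called. The median log2 fold change of the 23 was 0.13. Ctsd, cathepsin D, a protease of the endosome where class II molecules meet their peptides, had 46.0, 56.6, 316.1, 51.9 and 68.8 CPM in FO and 53.2, 21.3, 50.4, 36.7 and 45.9 CPM in CO mice. FO mouse 3 was far above all others, and the diets overlapped. The log2 fold change was 1.14 (SE 0.48, interval 0.13 to 2.14, edgeR p = 0.0289, adjusted p = 0.998), and the two-sided exact permutation test gave p = 0.0556. Without FO mouse 3 it was 0.37 and no longer called.

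The steps before and around the members had 0 further calls. Of 7 genes of class I peptide loading 4 were tested, with log2 fold changes from -0.11 for the chaperone Calr to 0.18 for the chaperone Canx. The immunoproteasome, which cuts peptides for class I, had 4 of 5 genes tested, with 0.27 for Psmb8, 0.23 for Psmb9, 0.21 for Psme2 and -0.20 for Psmb10. Besides Ctsd, the endosomal proteases Ctss (0.35, interval -0.41 to 1.11) and Ctsh (0.20) were tested, as was H2-DMb1 (-0.14), the beta chain of DM. Among the MHC transcription factors tested, the log2 fold change was -0.12 for Creb1, -0.09 for Irf2 and 0.13 for Irf1, with 0 calls in the list. Of 16 genes of the interferon-gamma response, the main inducer of both classes, 5 were tested. They ran from -0.41 for Gbp4 to 0.50 for Ifngr1, and Ifng itself had 0 counts in every mouse. Nlrc5, the class I counterpart of Ciita, had 5 counts over all mice. None of the 22 class Ib and other class I chains passed the filter. H2-Q4 was the most counted of them, with 12.5 ± 3.91 CPM in FO and 9.11 ± 7.74 CPM in CO mice (SD, n = 5 each, two-sided exact permutation p = 0.413), and 36.4% of its 50-base stretches occur in another gene.

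**Figure D5:**
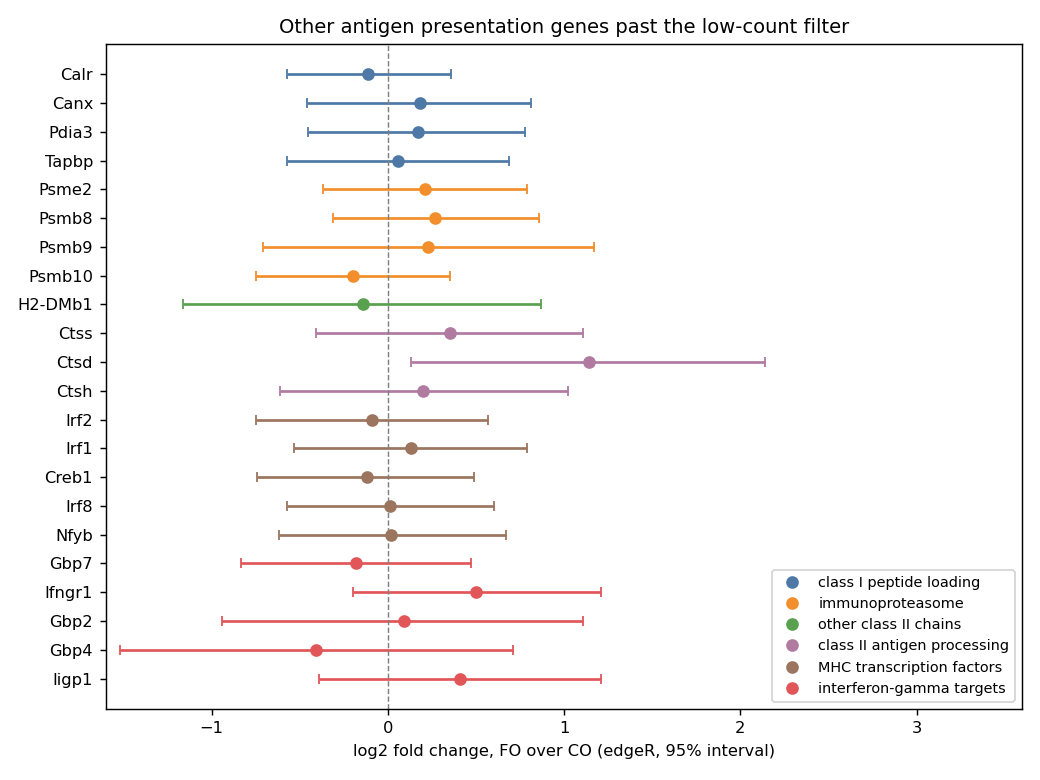
Log2 fold change of FO over CO (horizontal axis) with 95% edgeR intervals for the other antigen presentation genes that passed the low-count filter, with 1 gene not shown, coloured by step. The interval of Ctsd (0.13 to 2.14) lies above 0, and the intervals of the others shown cross it.

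Markers of the cells that carry class II overlapped between the diets. The summed level of the B cell list (10 of 12 genes in the table, 0 tested) was 12.9 to 42.0 CPM in FO and 13.3 to 72.2 CPM in CO mice. The 12 dendritic cell genes, 1 of them tested, summed to 64.2 to 94.0 CPM in FO and 53.2 to 87.6 CPM in CO mice. The macrophage and monocyte list (15 of 17 genes in the table, 5 tested) summed to 514.3 to 1412.9 CPM in FO and 332.8 to 943.6 CPM in CO mice. The sum was highest in FO mouse 3, the mouse with the high Ctsd value. CO mice 1 and 2 came next with 943.6 and 830.9 CPM, and their Ctsd values were 53.2 and 21.3 CPM. Cx3cr1 alone gave 542.0 CPM of the sum in FO mouse 3, 531.6 in CO mouse 1 and 383.5 in CO mouse 2. Its log2 fold change was -0.03. Lyz2 had 387.1, 132.9 and 207.7 CPM in the same mice. With all genes that had any count, 1 of the 14 genes of this list with a count was called higher in FO and 0 lower, where 4.15% of all genes were called. The part of macrophages in the Ctsd values was not tested. The 8 alveolar type 2 genes tested had a median log2 fold change of 0.34 and 0 calls. T and NK cell genes were near the floor, at 6.18 to 18.3 CPM in FO and 0.0 to 23.1 CPM in CO mice. Endothelial genes summed to 252 to 516.6 CPM and 292.4 to 452.8 CPM, and erythroid genes to 45.2 to 69.2 CPM and 2.1 to 81.1 CPM, almost all of it Alas2, since 4 of the 6 (Hba-a1, Hba-a2, Hbb-bs and Hbb-bt) were listed at 0 in every mouse. Of the lists for other cells, the neutrophil list had its 1 tested gene called, S100a9, a calcium-binding protein of neutrophils, with a log2 fold change of 2.27 (SE 0.48, edgeR adjusted p = 0.377, two-sided exact permutation p = 0.0079, the smallest possible). Neutrophil genes summed to 53.5 to 306.1 CPM in FO and 26.6 to 58.6 CPM in CO mice. The larger part of this sum was S100a8 and S100a9 in every mouse, with 110.5 and 158.8 of 306.1 CPM in FO mouse 1. Both genes are among those the study itself listed, and the lists were chosen with earlier results known. The p-value of S100a9 is therefore no independent test, and the sum adds little beyond that pair. In the fit of genes with any count, however, 5 of the 8 neutrophil genes were called higher in FO and 0 lower, where 4.15% of all genes were called. Most of them had few counts, and this count comes from the same list. The part of these cell types in the members' levels was not tested.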

How the data were processed

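Lung RNA of 5 FO and 5 CO mice was sequenced as single-end reads. The authors deposited raw counts per gene symbol, made by alignment to mm10 with STAR 2.4.0f1, SAMtools 0.1.19 and htseq-count, per the labels. The annotation and strand setting were not given in the sources used here. All columns were mapped by title, and no pair of mice had identical counts. Members and gene lists were chosen with earlier results of these data known. Named genes are the members, list genes called or among the 3 most counted tested genes of their list, and the 3 genes nearest each class. Further pathway and cell type genes were added after their values were seen. The tests were made with edgeR 4.0.16 under R 4.3.3 (TMM, minimum count 10, minimum total 15, quasi-likelihood test, no block). DESeq2 1.42.0 and limma 3.58.1 were alternatives. Intervals are the log2 fold change with its SE and the t quantile. Correlations used log2 CPM with a prior count of 2 and 100000 permutations. SciPy 1.17.1 gave exact tests. Scripts were tested on simulated data. Same-numbered mice are different animals. One list gene is not reported here.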

Additional observations from a re-analysis of the deposited data

Results flagged for a closer look

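In 34 groups of 5 values (the members' CPM and the ratios within mice), 2 single mice lay apart from their group by a gap of more than 0.71 of its range, where chance alone gives about 1.7 such mice. H2-Eb1 was 63.0 CPM in CO mouse 4, and the other CO mice had 26.3 to 36.7 CPM. The ratio of H2-K1 to B2m counts was 1.15 in CO mouse 5, and the other CO mice had 0.519 to 0.651. CO mouse 4 had the lowest Rn45s share, 21.8%, and CO mouse 5 the second highest Malat1 share, 6.15%. The part of either in these values was not tested.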

How the results depend on the processing

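The count of members called was 0 under each of 20 alternatives, most of which tested 6 or 7 of the 10 members. H2-DMa, Ciita and Tap1 were tested only with all genes that had any count, and 4 members were tested without FO mouse 2 and CO mouse 5. The sign of small changes was not stable: H2-K1 (0.05) ran from -0.43 without FO mouse 2 to 0.20 with a mouse left out and was -0.23 under limma-voom, and H2-Eb1 (-0.04) was 0.30 without CO mouse 4. The count of all genes called, 71, was 587 with all genes that had any count, 36 with library size alone, 117 with limma-voom and 0 by adjusted p under 0.05, and it ran from 54 to 154 with a mouse left out. Without FO mouse 2 it was 154. The count of other antigen presentation genes called, 1, was 0 with library size alone, 0 with robust estimation and 0 by adjusted p. It was 2 without FO mouse 2 and CO mouse 5 (Ctsd and Ctss) and ran from 0 to 3 with a mouse left out. It was 0 without FO mouse 3, CO mouse 2 or CO mouse 4 and 3 without CO mouse 5, Ctsd and Ctss among them. Under limma-voom Ctsd was not called. The median log2 fold change of the class II genes, -0.04, was -0.80 with library size alone and 0.41 without FO mouse 2 and CO mouse 5, when H2-Aa alone passed the filter, and it ran from -0.20 to 0.28 with a mouse left out. That of the class I genes, 0.01, was -0.61 with library size alone and ran from -0.14 to 0.15. With library size alone the median of all genes was -0.55. The cause of the other changes was not tested. The pairing rests on mouse numbers alone. Deviations of same-numbered mice had a mean correlation of -0.12 (-0.41 to 0.03), and 0 of 5 FO mice correlated best with their own number. With the replicate block, 55 genes and 0 members were called, and the median log2 fold changes were -0.02 for class II and 0.02 for class I. At 45177 other counts in the shallowest library, members with few counts (H2-DMa, Ciita, Tap1) carried log2 intervals as wide as -1.04 to 1.60.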
